A study of Mus musculus with 2 samples.

Results

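The let-7 microRNA (miRNA) genes were examined in hearts of mouse embryos at embryonic day 11.5. The 10 loci are Mirlet7a-1, Mirlet7a-2, Mirlet7b, Mirlet7c-1, Mirlet7c-2, Mirlet7d, Mirlet7f-2, Mirlet7g, Mirlet7i and Mir98, chosen by name through their Ensembl gene IDs from 1973 counted miRNA genes, and all 10 were detected. Levels are in CPM, that is own-strand counts per 1000000 such counts of the library, and detected means 1 CPM or more in both libraries, which held for 419 genes in all. The only group was heart tissue, labelled healthy, of strain B6NCrl, with male and female embryos pooled, sampled as biological replicates 1 and 2. Replicate 1 pooled hearts of 109 embryos, no number is given for replicate 2, and the labels attach the same donor entry to both. Sequencing took RNA under 30 nt. Replicate 1 had 18467499 own-strand miRNA counts and replicate 2 had 2017294, so every let-7 value of replicate 2 rests on a smaller library. The listed heart muscle miRNAs were present, with Mir208a, Mir208b and Mir499 summing to 58391 CPM in replicate 1 and 63138 CPM in replicate 2. Of muscle miRNAs outside that list, Mir1a-1 had 2.98 CPM in replicate 1 and 1.49 CPM in replicate 2. Mir133a-1 had 1.62 and 5.45 CPM, and Mir133b had 3.95 and 6.44 CPM. Why these were low was not tested. The neural markers Mir9 and Mir124, of which 3 of 5 had a row, summed to 1.30 and 0 CPM. Mir9-2 and Mir124a-1 were at 0 in both libraries. Mir9-2 and Mir9-3 each have an arm found whole in another RefSeq hairpin. Reads with several mapping positions appear to be credited to no gene, so the low sum does not show that neural RNA was lacking. Which cells of the heart hold let-7 was not tested, and in such bulk tissue fewer cells of a type and less RNA per cell cannot be told apart.

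let-7 was among the earliest miRNAs found, as a timing gene in the nematode Caenorhabditis elegans, and in vertebrates it is known for promoting differentiation over proliferation. A mature let-7 strand guides Argonaute proteins to messages that pair with its seed, bases 2 to 8, such as those of Hmga2, Lin28 and Ras genes. In embryonic and stem cells, LIN28 proteins bind the loop of let-7 precursors and block their maturation, so a transcribed let-7 gene need not yield mature let-7. The LIN28 genes themselves code for protein and are outside a table of miRNA genes.

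The mature 5p strands are shown because they differ by few bases, which bears on whether a read can be assigned to 1 locus. They are taken from RefSeq on GRCm38.p6, run 5′ to 3′, and have the seed in capitals.
let-7g-5p: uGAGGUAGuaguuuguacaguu
let-7i-5p: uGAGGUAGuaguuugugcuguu
let-7d-5p: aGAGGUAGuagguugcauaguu
miR-98-5p: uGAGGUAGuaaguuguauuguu
let-7b-5p: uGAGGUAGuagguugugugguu
let-7e-5p: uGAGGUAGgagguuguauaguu
let-7a-5p: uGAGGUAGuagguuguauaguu
let-7c-5p: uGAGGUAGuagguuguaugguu
let-7f-5p: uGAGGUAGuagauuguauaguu

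All 12 let-7 hairpins looked up, the 10 loci with Mirlet7e and Mirlet7f-1, carried the same seed, and their 5p strands came to 9 distinct sequences of 22 bases. Counting positions from 1 at the 5′ end and with let-7a-5p as the reference, let-7c-5p differed by A19G, let-7f-5p by G12A and let-7e-5p by U9G. let-7b-5p differed by A17G and A19G, let-7d-5p by U1A and U16C, let-7g-5p by G12U and U18C, and miR-98-5p by G11A and A19U. let-7i-5p stood furthest from let-7a-5p, with G12U, A17G, U18C and A19U. let-7a-5p occurred whole in the hairpins of Mirlet7a-1 and Mirlet7a-2, let-7c-5p in those of Mirlet7c-1 and Mirlet7c-2, and let-7f-5p in those of Mirlet7f-1 and Mirlet7f-2. In the RefSeq table, the 5p strand of Mirlet7a-2 was listed under Mirlet7a-1 only and was found in the hairpin by search. Across 1738 listed mature entries, where let-7c-5p and let-7f-5p each appear repeatedly, 13 had these bases 2 to 8, a share of 0.748%. Outside the 12 loci they were miR-1961, whose gene had 1 count in replicate 1 and 0 in replicate 2, and let-7k, whose gene Mir7k had 0 counts in both. A count of 0 allows up to 0.162 CPM in replicate 1 and 1.49 CPM in replicate 2, from 3 counts of each total.

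Mirlet7g and Mirlet7i made up most of the let-7 pool. Mirlet7g had 335475 counts or 18166 CPM in replicate 1 and 33743 counts or 16727 CPM in replicate 2, averaging 17446 ± 1017 CPM (SD, n = 2). Mirlet7i had 14833 CPM in replicate 1 and 12533 CPM in replicate 2, averaging 13683 ± 1626 CPM (SD, n = 2). Both were higher in replicate 1, and in each library Mirlet7g stood above Mirlet7i. They ranked 14 and 17 among all 1973 genes by mean CPM. Together they held 86.3% of let-7 counts in replicate 1 and 85.8% in replicate 2. A small RNA read spans the mature strand, so counts were not divided by gene length; reads of the 5p and 3p arms are not separated in these counts.

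Mirlet7g (ENSMUSG00000065440.1) lies at chr9:106178840-106178927 on GRCm38 (mm10), plus strand, in an intron of Wdr82. Mirlet7i (ENSMUSG00000065406.2) lies at chr10:122985640-122985724, minus strand, in an annotated exon of D630033A02Rik. Neither had another annotated miRNA gene within 10 kb on its strand. The model of Mirlet7i has a later version in the annotation used for positions than in the counted files, as do those of Mirlet7a-1 and Mirlet7c-1.

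Mirlet7d and Mir98 formed an intermediate level. Mirlet7d had 3113 CPM in replicate 1 and 3006 CPM in replicate 2, averaging 3059 ± 76 CPM (SD, n = 2). Mir98 had 1525 CPM in replicate 1 and 1317 CPM in replicate 2, averaging 1421 ± 147 CPM (SD, n = 2). For both, the libraries lay close together against the distance to the next locus on either side. Mirlet7d held 8.15% of let-7 counts in replicate 1 and 8.81% in replicate 2, and Mir98 held 3.99% and 3.86%.

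The other 6 loci were lower still, with the number of counts limiting the lowest. Mirlet7b, a let-7 with its own mature sequence, had 5087 counts or 275 CPM in replicate 1 and 541 counts or 268 CPM in replicate 2. Mirlet7f-2 had 151 CPM in replicate 1 and 117 CPM in replicate 2. Mirlet7c-1 had 69.5 and 69.4 CPM in replicates 1 and 2. These were followed by the let-7a loci, whose mature 5p strand is the same. Mirlet7a-2 had 46.8 CPM in replicate 1 and 40.6 CPM in replicate 2. Mirlet7a-1 had 526 counts or 28.5 CPM in replicate 1 and 58 counts or 28.8 CPM in replicate 2. Mirlet7c-2, with 150 counts in replicate 1 and 13 in replicate 2, was the lowest at 8.12 and 6.44 CPM. Its exact 95% Clopper-Pearson interval ran from 6.87 to 9.53 CPM in replicate 1 and from 3.43 to 11.0 CPM in replicate 2. Intervals and limits of this kind cover counting error only.

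**Figure D1:**
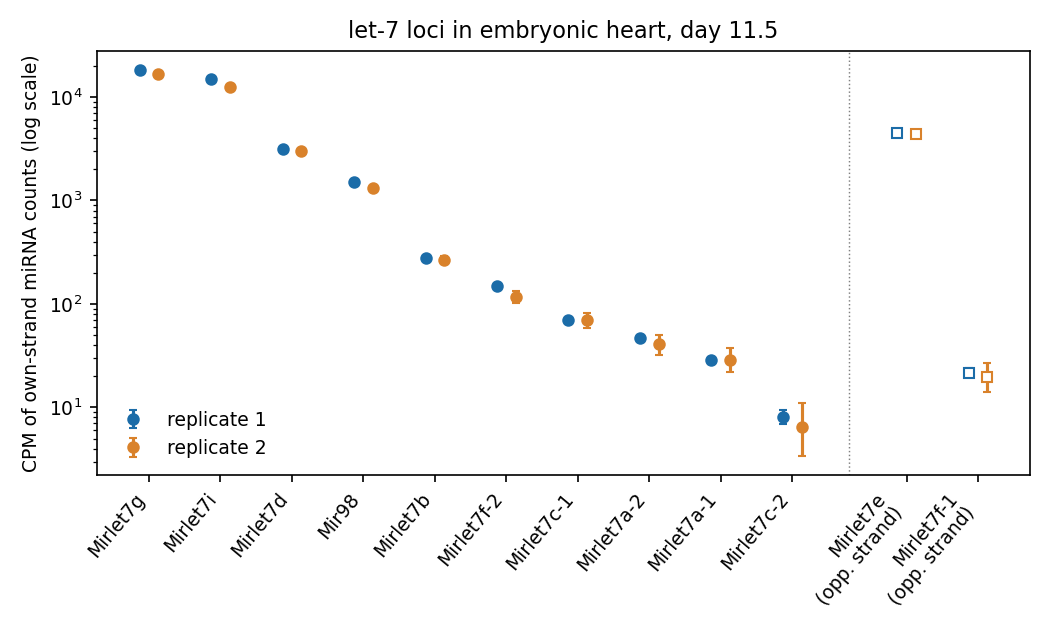
Own-strand CPM of each let-7 locus (log axis) in replicate 1 (blue) and replicate 2 (orange), ordered by mean, with exact 95% Clopper-Pearson intervals; squares right of the dotted line are opposite-strand counts where Mirlet7e and Mirlet7f-1 lie. The loci run from Mirlet7g at 17446 CPM to Mirlet7c-2 at 7.28 CPM, and at each locus the difference between the libraries is small beside this range.

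All 10 loci summed to 3.82% of miRNA counts in replicate 1 (exact 95% interval 3.81 to 3.83%) and 3.41% in replicate 2 (3.39 to 3.44%). The sum was 36165 ± 2901 CPM (SD, n = 2). The coefficient of variation between the replicates ran from 0.0749% for Mirlet7c-1 to 17.6% for Mirlet7f-2, so the spread between libraries was small beside the range of levels over the family. The order was examined by the log2 ratio of each locus to the next lower one within a library. Loci were taken as apart beyond the spread if the ratio had 1 sign in both libraries, neither exact binomial interval took in equality, and the mean was greater than the SD. Of the 9 neighbouring pairs, 8 met this. The order came from the mean CPM of these same libraries, so the pairs describe the order and are no independent test of it. The rule was not applied to neighbours among all genes, so no share stands beside this count. Mirlet7g was 1.28-fold above Mirlet7i, with a mean log2 ratio of 0.35 ± 0.09, from 0.29 in replicate 1 and 0.42 in replicate 2. Mirlet7i was 4.46-fold above Mirlet7d (2.16 ± 0.14), Mirlet7d was 2.16-fold above Mir98 (1.11 ± 0.11) and Mir98 was 5.22-fold above Mirlet7b (2.38 ± 0.12). The pair that did not meet the rule was Mirlet7a-2 over Mirlet7a-1. Their log2 ratio was 0.72 in replicate 1 and 0.50 in replicate 2, where the interval of -0.0031 to 1.01 took in equality. Ratios of counts between loci do not measure ratios of RNA, because the efficiency of capturing different miRNAs was not measured.

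The 5 loci whose 5p strand was found in a single RefSeq hairpin, Mirlet7g, Mirlet7i, Mirlet7d, Mir98 and Mirlet7b, were also the 5 highest. They summed to 37913 CPM in replicate 1 and 33851 CPM in replicate 2, against 304 CPM and 263 CPM for the 5 loci of the shared let-7a, let-7c and let-7f strands. The shared-strand loci thus held 0.795% of let-7 counts in replicate 1 and 0.770% in replicate 2. The groups did not overlap, with 268 CPM as the lowest value of the first and 151 CPM as the highest of the second. Over all detected genes, classed by any arm and not the 5p strand alone, such levels did overlap. Genes with an arm found whole in another hairpin reached 2974 CPM. Those with 3 or more mismatches had a lower quartile of 6.48 CPM. As the tables are laid out, reads with several mapping positions are held in a summary row and credited to no gene. Of all mapped reads, that row held 33.8% in replicate 1 and 33.2% in replicate 2. How many of those reads came from let-7 is not recorded, and the part of such reads in the low values was not tested. The counts of Mirlet7a-1, Mirlet7a-2, Mirlet7c-1, Mirlet7c-2 and Mirlet7f-2 are therefore uncertain as levels of let-7a, let-7c and let-7f.

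The 3p arms, which are cut from the other side of the hairpin, separated the loci further. Set against every other RefSeq hairpin, the 3p sequences of Mirlet7g, Mirlet7d and Mir98 had at least 4 mismatches and that of Mirlet7i at least 5. Those of Mirlet7b, Mirlet7c-1 and Mirlet7a-2 had 2, and that of Mirlet7f-2 had 1. The 3p sequence of Mirlet7a-1 was identical to that of Mirlet7c-2, so these are the loci with no listed arm of their own. They were also the lowest of the 10 loci.

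These 3p sequences, again 5′ to 3′ from RefSeq, are shown for the 5 shared-strand loci; in the first and second lines the letters are the same.
let-7a-1-3p: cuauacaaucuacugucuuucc
let-7c-2-3p: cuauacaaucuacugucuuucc
let-7f-2-3p: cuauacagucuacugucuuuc
let-7a-2-3p: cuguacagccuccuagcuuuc
let-7c-1-3p: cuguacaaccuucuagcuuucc

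Over all counted genes, 858 could be matched to a RefSeq hairpin with a mature sequence, and the same measure was taken over all arms of each. The 47 detected genes with an arm found whole in another hairpin had a median of 41.1 CPM and a highest level of 2974 CPM. The median was 651 CPM for 28 genes whose nearest other hairpin had 1 mismatch, 581 CPM for 25 genes with 2, and 68.4 CPM for 251 genes with 3 or more. Genes with 3 or more mismatches also included low levels, with a lower quartile of 6.48 CPM. That class is not free of near copies, because mismatches were counted over whole strands and listed hairpins only. The 5 shared-strand let-7 loci, from 7.28 to 134 CPM, are themselves among the 47, so that set is no separate background for them. The part of copies in these levels was not tested. RefSeq does not list every hairpin, so a copy at an unlisted place would not be found.

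**Figure D2:**
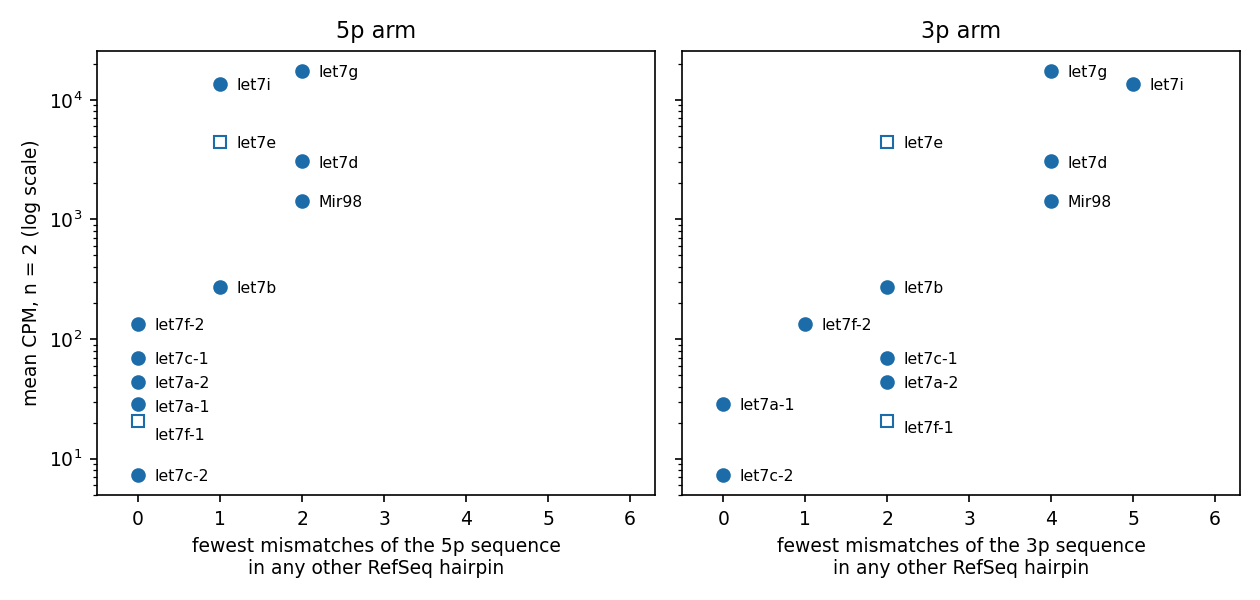
Mean CPM (n = 2, log axis) of each let-7 locus against the fewest mismatches between its 5p strand (left) or 3p strand (right) and any other RefSeq hairpin; open squares are opposite-strand counts. Loci with 0 mismatches in the 5p strand lie at or below 134 CPM, and the 4 highest loci read on their own strand have 4 or 5 mismatches in the 3p strand.

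Mirlet7e and Mirlet7f-1 have no row, and each lies on the strand opposite to a counted gene model. The opposite strand of Gm25927, where Mirlet7e lies at chr17:17830352-17830444 in an intron of Spaca6, held 83792 counts in replicate 1 and 8777 in replicate 2. Scaled to the own-strand totals, these were 4537 and 4351 CPM, a mean of 4444 ± 132 CPM (SD, n = 2). That level would stand between Mirlet7i and Mirlet7d. The opposite strand of Gm24111, where Mirlet7f-1 lies at chr13:48537829-48537917, held 399 counts in replicate 1 and 40 in replicate 2, or 21.6 and 19.8 CPM. That would stand between Mirlet7a-1 and Mirlet7c-2, beside the other shared-strand loci. That this column holds opposite-strand counts was taken from the layout of the file, and no source used here states it. Own-strand counts of these 2 gene models were 0 in both libraries for Gm25927, and 1 and 0 for Gm24111.

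Several let-7 loci lie in clusters, which are thought to be transcribed as a single precursor, so levels within a cluster can be set side by side. On chromosome 13, Mirlet7a-1, Mirlet7f-1 and Mirlet7d overlap annotated exons of 6720427I07Rik on the minus strand, with 2064 bases between the first and the last. Mirlet7d exceeded Mirlet7a-1 by 107-fold, with a log2 ratio of 6.74 ± 0.05. On chromosome X, Mirlet7f-2 and Mir98 lie 785 bases apart in an intron of the ubiquitin ligase gene Huwe1. Mir98 exceeded Mirlet7f-2 by 10.6-fold (3.41 ± 0.10). On chromosome 15, Mirlet7c-2 and Mirlet7b lie 621 bases apart and overlap exons of Lncppara. Mirlet7b exceeded Mirlet7c-2 by 37.6-fold (5.23 ± 0.21). In these 3 clusters the locus with its own 5p strand was the higher in both libraries. All 3 ratios were larger than the spread.

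The other clusters join a let-7 locus to genes of the miR-99/100 and miR-125 families, an arrangement known from flies to mammals. All 6 such partners had a row. On chromosome 16, in Mir99ahg, Mirlet7c-1 stood 656 bases from Mir99a, which reached 55497 CPM in replicate 1 and 52645 CPM in replicate 2. Mirlet7c-1 was 778-fold below Mir99a, with a log2 ratio of -9.60 ± 0.05. It was 8.58-fold below Mir125b-2 (-3.10 ± 0.004), which lies 46522 bases away and stood at 597 and 594 CPM in the replicates. On chromosome 9, Mirlet7a-2 was 107-fold below Mir100 (-6.74 ± 0.003), which lies 5211 bases away and had 5017 and 4345 CPM in the replicates. Mirlet7a-2 was 12.3-fold below Mir125b-1 (-3.62 ± 0.04), which lies 45114 bases away and had 562 and 509 CPM in the replicates. Both low let-7 members of these clusters have shared 5p strands. Whether Mir125b-1 and Mir125b-2 also share a strand was not examined, because the hairpin of Mir125b-2 is not among those listed. A shared strand is therefore not shown to set the let-7 members apart from these partners.

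The chromosome 17 cluster in Spaca6 looked different. The opposite-strand counts at Mirlet7e were 5.02-fold below Mir99b (-2.33 ± 0.003), which had 22751 and 21887 CPM in the replicates. They were 1.18-fold above Mir125a (0.24 ± 0.06), at 3726 and 3778 CPM in the replicates. Across the 10 ratios of cluster mates and of Mirlet7g to Mirlet7i, all 10 were larger than the spread, and the largest SD over libraries was 0.21 on the log2 scale. Even the 1.18-fold ratio met the rule. It was not applied to pairs over all genes, so the count is not shown to be particular to let-7 clusters. The SD shows how alike the libraries were, not how well each locus is read, so a bias shared by both libraries is not in it.

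**Figure D3:**
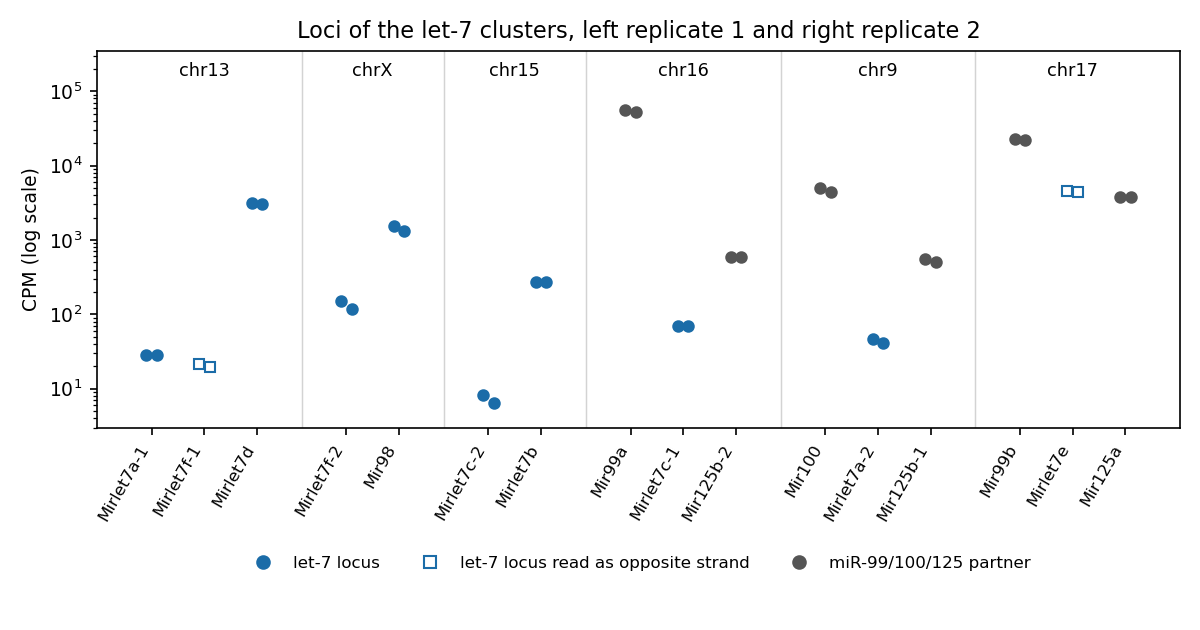
CPM (log axis) of the loci in 6 let-7 clusters, with replicate 1 left and replicate 2 right within each locus; blue circles are let-7 loci, open squares let-7 loci read as opposite strand, and grey circles the partners of the miR-99/100 and miR-125 families. Mirlet7c-1 and Mirlet7a-2 lie below both partners, while Mirlet7e lies between its partners.

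The stretch between the mature arms was searched because LIN28 is known to bind GGAG and a GAU-containing motif there. The hairpins below are shown to compare Mirlet7g and Mirlet7i with the hairpins that lack GGAG between the arms; capitals mark GGAG. They are RefSeq sequences on GRCm38.p6, 5′ to 3′ on the strand of the gene.
Mirlet7g: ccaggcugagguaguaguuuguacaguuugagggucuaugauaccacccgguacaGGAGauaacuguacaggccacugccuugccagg
Mirlet7i: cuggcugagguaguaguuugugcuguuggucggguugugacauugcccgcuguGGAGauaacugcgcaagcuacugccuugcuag
Mir98: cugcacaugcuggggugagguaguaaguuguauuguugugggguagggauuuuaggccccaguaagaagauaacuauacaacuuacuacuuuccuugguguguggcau
Mirlet7b: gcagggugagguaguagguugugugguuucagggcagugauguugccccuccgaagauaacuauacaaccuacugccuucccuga
Mirlet7c-2: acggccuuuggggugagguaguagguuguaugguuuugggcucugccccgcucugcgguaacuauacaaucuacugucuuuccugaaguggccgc

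GGAG occurred in 9 of the 12 let-7 hairpins, and Mir98, Mirlet7b and Mirlet7c-2 lacked it. Only the RNA's own strand was searched. The stretch between the arms ran from 23 to 36 bases in let-7 hairpins. Over all 644 RefSeq hairpins with both arms listed, 8.07% held GGAG, and 24.6% did among the 61 hairpins with a stretch of 23 to 36 bases. GAU occurred in 10 of the 12, often because GGAGAU holds both motifs with a shared base, beside 15.7% of all hairpins and 29.5% of those with a similar stretch. A GAU that did not overlap GGAG was found in 5, Mirlet7b, Mirlet7d, Mirlet7g, Mir98 and Mirlet7f-1. The corresponding shares were 15.1% over all hairpins and 23.0% over those of similar stretch. The let-7 hairpins other than Mirlet7a-2, whose 5p strand is listed under Mirlet7a-1 only, are in both sets. Those with GGAG are among the 15 such hairpins of similar stretch, so they raise that share. All 12 share ancestry, so they are not independent. The loci lacking GGAG had levels of 1421, 272 and 7.28 CPM, and those with it ran from 28.6 to 17446 CPM among the counted loci, so the levels overlapped. A match to these letters describes the sequence and says nothing of LIN28 binding in these hearts.

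The replicates were then compared at each locus, which is a comparison of 2 libraries and not of conditions. Mirlet7g, Mirlet7i, Mirlet7d, Mir98 and Mirlet7f-2, 5 of 10 loci, were lower in replicate 2, and 0 of 10 were higher, by a two-sided exact binomial test with Benjamini-Hochberg adjustment over 419 genes at a threshold of 0.05. Over those genes 29.4% were called, 15.0% lower and 14.3% higher. Among the 193 genes of 100 CPM or more in both libraries, where counting error is smaller, 23.8% were called lower and 26.9% higher; 6 let-7 loci are among them, and 5 of these were called.

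Mirlet7i had the smallest p, at 0.845-fold in replicate 2 (log2 ratio -0.24, exact interval -0.26 to -0.22, adjusted p = 1.39e-149, exact binomial). Mirlet7g was 0.921-fold (log2 -0.12, adjusted p = 6.15e-47, exact binomial) and Mir98 0.863-fold (log2 -0.21, adjusted p = 1.77e-12, exact binomial). Mirlet7f-2, with 237 counts in replicate 2, was 0.779-fold (log2 -0.36, interval -0.56 to -0.17, adjusted p = 0.000883, exact binomial). Mirlet7d moved least of those called, at 0.966-fold (log2 -0.05, adjusted p = 0.0328, exact binomial). The remaining 5 loci did not pass the test. Mirlet7b and Mirlet7c-1, at 0.974-fold and 0.999-fold, were the closest to equality below it, while Mirlet7a-1 was 1.01-fold. Mirlet7a-2 was 0.869-fold and Mirlet7c-2 0.793-fold, each with an interval that took in equality. In Mirlet7c-2 the interval ran from -1.28 to 0.48 on the log2 scale, so a difference the size of that in Mirlet7f-2 was not detectable at this depth.

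The median log2 ratio was -0.16 over the 10 loci, with 9 of 10 below 0, beside -0.01 over all 419 genes, of which 224 were below 0 and whose interquartile range ran from -0.18 to 0.12. Mirlet7i, Mir98, Mirlet7f-2, Mirlet7a-2 and Mirlet7c-2 lay below that range. These p-values allow for counting error only. An edgeR exact test at the common dispersion, a biological coefficient of variation of 18.0%, called 0 of 10 let-7 loci (0 at an unadjusted p of 0.05) and 0.955% of genes lower. That dispersion was estimated from these same 2 libraries taken as a single group, so it holds the difference being tested, and the absence of a call says nothing for or against differences of this size. No let-7 difference reached 2-fold, while 1.91% of genes both passed the exact binomial test and were at least 2-fold lower. Of the 6 cluster partners, 4 were lower in replicate 2, 0 were higher and 2 did not pass, with Mir100 at 0.866-fold and Mir99a at 0.949-fold. Epithelial markers, Mir203, Mir205 and the 5 loci of the miR-200 family, moved the same way, with all 7 detected and a sum of 2144 CPM in replicate 1 and 1488 CPM in replicate 2. The liver marker Mir122 had 395 CPM in replicate 1 and 160 in replicate 2, and the skeletal muscle marker Mir206 had 65.6 and 48.6 CPM. The heart muscle, endothelial and smooth muscle lists had higher sums in replicate 2, and the blood list had 995 and 983 CPM. The part of these markers in the let-7 differences was not tested.

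**Figure D4:**
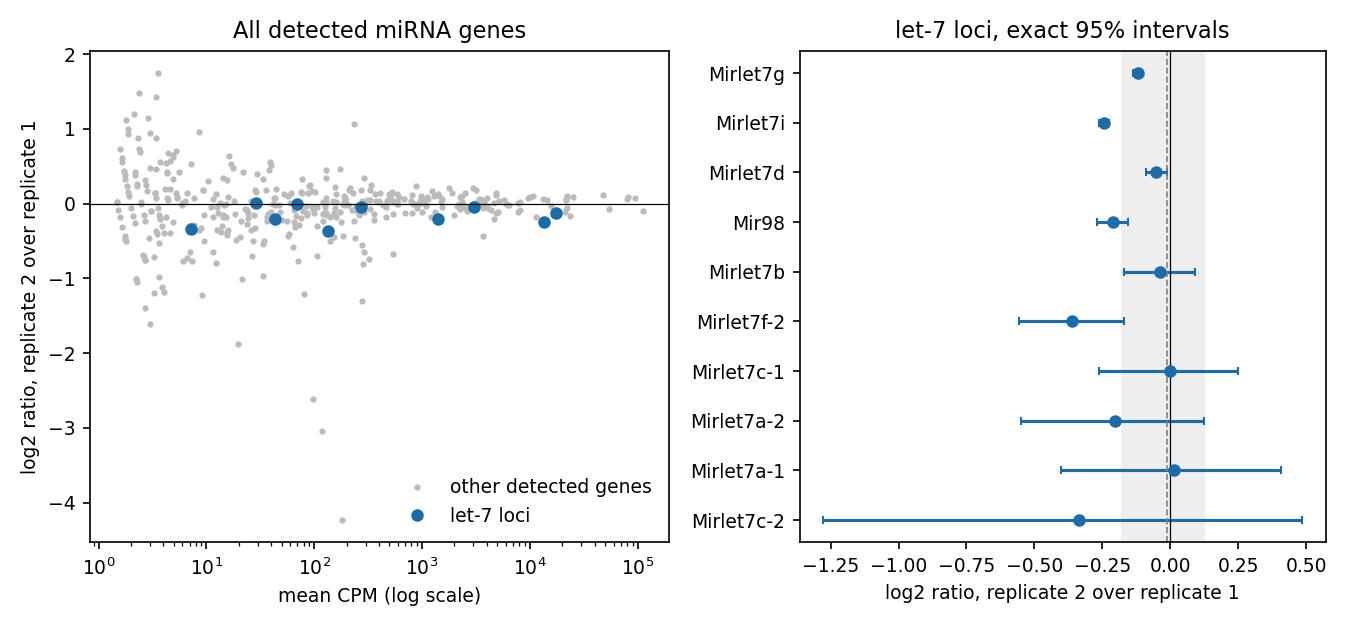
Log2 ratio of replicate 2 over replicate 1. Left, against mean CPM (log axis) for 419 detected genes (grey) and the 10 let-7 loci (blue); right, each let-7 locus with its exact 95% interval, with the median (dashed) and interquartile range (shaded) of all detected genes. Of the 10 loci 9 lie below 0, as do 224 of the 419 genes, and the intervals widen as the counts fall.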

How the data were processed

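MicroRNA sequencing of embryonic heart gave 2 libraries of 1 group. Per the file headers in the deposited notes, the authors' tables are raw read counts by gene on mm10 with GENCODE M4. The aligner and counter were not given in the sources used here. By layout and sums, the 3 unlabelled count columns were taken as both strands, own strand and opposite strand. Own and opposite counts added up to the first column for all genes. Summary rows stayed out of totals: they held 38.4% unmapped, 20.8% multimapping and 8.77% unassigned reads in replicate 1, against 27.5%, 24.1% and 7.04% in replicate 2.

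Symbols and positions (1-based) came from GENCODE M21 on GRCm38, matched by ID for 1894 of 1973 genes, with the same ID version for 7 of 10 let-7 loci. CPM were own-strand counts per 1000000 own-strand miRNA counts, and opposite-strand counts used the same totals. Mature and hairpin sequences came from RefSeq (GRCm38.p6), in which all 10 loci matched. Mismatches were the fewest in any ungapped window of another listed hairpin. Shares have exact 95% Clopper-Pearson intervals. Library differences used the exact binomial test, with TMM (edgeR 4.0.16), DESeq2 1.42.0 size factors, other minimums and edgeR's exact test as alternatives; Python 3.11.15 and scipy 1.17.1 were used. No p over replicates is given, since an exact two-sided sign-flip test of 2 values cannot go below 0.5.

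All 10 loci, their same-strand miRNA neighbours, genes of the same seed and the opposite strands of Gm25927 and Gm24111 were named; members and lists were chosen with earlier results of these data known. The tests were checked on simulated data with counting error only and with planted changes larger than the let-7 differences. That check does not cover small differences or further spread between libraries.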

Additional observations from a re-analysis of the deposited data

Results flagged for a closer look

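Opposite-strand counts at let-7 gene models stood above the limit of 3 counts that a count of 0 allows. The strand opposite Gm25927, where Mirlet7e lies, held 83792 and 8777 counts in replicates 1 and 2. The strand opposite Gm24111, where Mirlet7f-1 lies, held 399 and 40 counts. The strand opposite Mirlet7b held 56 counts in replicate 1 and 4 in replicate 2, beside 5087 and 541 on its own strand; no annotated gene lies opposite it in M21.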

How the results depend on the processing

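The summed level of 36165 CPM was 40630 CPM with the opposite strands of Gm25927 and Gm24111 added, and moved by less than its SD under TMM, DESeq2 size factors and both-strand counts; it was 34114 to 38216 CPM with either replicate left out. Detected loci numbered 9 at a minimum of 10 CPM, without Mirlet7c-2. Of 72 ratio values under alternatives, 71 kept direction and call. The exception was Mirlet7a-2 over Mirlet7a-1, which ranged from 0.50 to 0.72 with either replicate left out and left out equality in replicate 1 alone. Loci lower in replicate 2 numbered 4 with no minimum on CPM (Mirlet7d, adjusted p = 0.0593, exact binomial), 0 with a minimum of 2-fold and 0 with edgeR's exact test, whose dispersion comes from the same 2 libraries. The log2 library ratio near 0 changed sign for Mirlet7a-1, to -0.00050 under TMM and -3.6e-05 under DESeq2 size factors. It also did for Mirlet7c-1, to 0.00022 with both-strand counts and 0.014 with edgeR's exact test. Depth limits Mirlet7c-2 and Mirlet7a-1, with 13 and 58 counts in replicate 2. With either replicate left out, the libraries cannot be compared with each other. No paired analysis was possible because there is a single group.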

Other observations

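Mir7j, whose mature strand is named let-7j, lies outside the let-7 seed group by the base change G8U relative to let-7i-5p, and it was chosen with its values known. Its mature strand, with bases 2 to 8 in capitals, differs from let-7i-5p at this base alone over the 22 bases they share.
let-7j: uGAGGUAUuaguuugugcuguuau
Mir7j on chromosome 3 had 1357 counts in replicate 1 and 119 in replicate 2, or 73.5 and 59.0 CPM. That was 0.495% of the counts of Mirlet7i in replicate 1 and 0.471% in replicate 2. Mir7j thus stood in nearly the same proportion to Mirlet7i in both libraries, at a level near that of Mirlet7c-1. How often other pairs of genes keep their proportion was not tested, nor was any link between the counts of Mir7j and Mirlet7i.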
